A study of Mus musculus with 5 samples.

Results

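The SOX11-only intergenic sites were 5473 of the 21270 SOX11-FLAG peaks in keratinocytes, or 25.7% of them. They were chosen by their place in the deposited lists and in the genome: a peak had to stand among the last 19143 (90%) of the SOX11 list, overlap no SOX4-FLAG peak by as much as 1 bp, have its centre outside every protein-coding gene body and promoter, and have that centre at most 100 kb from the nearest protein-coding transcription start. A promoter here covers 1 kb before and 100 bp after a start in the mm9 GENCODE M1 annotation. The position in the list and the lack of a SOX4 peak are therefore properties of the choice, not results, whereas the DNA sequence of the sites was not used to choose them. Of these 19143 peaks, 17939 overlapped no SOX4 peak, 7198 of these were intergenic, and 5473 met the distance limit.

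All libraries came from primary keratinocytes of newborn mice of mixed 129SvEx:C57BL/6 background with the genotype Krt14-Cre;Sox11fl/fl;Sox4fl/fl, in which a Cre recombinase under the keratin 14 promoter deletes both *Sox11* and *Sox4* (dcKO). The background named is that of the labels; per the study's methods the Cre line was FVB/N. The cells of the FLAG libraries had been transduced with a Sox11-Flag (2 replicates) or Sox4-Flag (2 replicates) lentivirus that responds to doxycycline and were treated with doxycycline for a day before fixation, so each factor was measured as a tagged protein brought back into cells without the endogenous factors. Chromatin was sheared to fragments of 100 to 500 bp and precipitated with an antibody to FLAG, and 1 control library, titled input but with IgG in its antibody field, has no peak list. Each list combines both replicates and gives only where a peak lies, so no height, depth or replicate spread can be given. A site without a SOX4 peak cannot be told apart from a SOX4 site that missed the threshold of that list, which holds 2669 peaks.

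SOX11 and SOX4 belong to the SOXC group of transcription factors, which bind the minor groove of DNA through an HMG box at short A- and T-rich sequences. Peaks far from promoters are usually read as candidate enhancers, stretches of DNA where several factors bind near each other. In keratinocytes, factors of the AP-1 family (FOS and JUN dimers) and of the TEAD family, the DNA-binding partners of the Hippo effectors YAP and TAZ, are known to occupy many such elements.

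Sequence cores were searched as exact letters on both strands. The SOX core was CTTTGT or CATTGT, the AP-1 core was TGACTCA, which reads TGAGTCA on the other strand, and the TEAD core was GGAATG. Of the sites, 1141 (20.8%) held both a SOX and an AP-1 core, 2096 (38.3%) a SOX core without AP-1, 933 (17.0%) an AP-1 core without SOX, and 1303 (23.8%) neither. The TEAD core was in 392 of the last group, and 911 sites (16.6%) held none of the 3 cores. To show what such sites look like, 7 sequences from the forward strand of mm9 are printed here, the earliest of each kind in the list (for SOX with AP-1, only sites with the cores at most 50 bp apart) whose nearest gene belongs to one of the gene groups described further on. Capitals mark every match to the 3 cores. The sites nearest to *Areg*, an EGF receptor ligand, and *Cdsn*, corneodesmosin, hold a SOX and an AP-1 core, 42 and 29 bp apart. Those of *Krt8* and *Fzd1* hold AP-1 cores only, and that of *Krt8*, a keratin of simple epithelia, has 2 of them. The sites of *Dusp7* and *Dusp6*, phosphatases of MAP kinases, have a SOX core without AP-1, and the *Dusp7* site also has a TEAD core. The site of *Trp63*, the gene of the p63 factor, has 2 TEAD cores alone.
Areg site, chr5:91543693-91543950: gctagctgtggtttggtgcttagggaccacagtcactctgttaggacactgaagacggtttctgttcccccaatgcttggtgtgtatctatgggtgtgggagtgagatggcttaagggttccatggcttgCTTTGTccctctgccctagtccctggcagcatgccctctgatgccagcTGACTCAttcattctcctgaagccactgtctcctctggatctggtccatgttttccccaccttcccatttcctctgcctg
Cdsn site, chr17:35694320-35694577: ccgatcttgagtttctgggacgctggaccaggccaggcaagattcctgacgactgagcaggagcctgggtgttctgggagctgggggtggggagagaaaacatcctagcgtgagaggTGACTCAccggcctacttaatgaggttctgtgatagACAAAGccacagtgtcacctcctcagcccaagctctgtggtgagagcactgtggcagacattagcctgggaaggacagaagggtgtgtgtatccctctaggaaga
Krt8 site, chr15:101835879-101836136: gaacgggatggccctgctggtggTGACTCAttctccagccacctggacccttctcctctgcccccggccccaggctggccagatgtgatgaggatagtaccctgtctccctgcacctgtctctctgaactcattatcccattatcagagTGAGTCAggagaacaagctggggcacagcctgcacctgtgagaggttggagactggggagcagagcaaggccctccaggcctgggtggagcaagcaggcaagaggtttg
Fzd1 site, chr5:4767933-4768190: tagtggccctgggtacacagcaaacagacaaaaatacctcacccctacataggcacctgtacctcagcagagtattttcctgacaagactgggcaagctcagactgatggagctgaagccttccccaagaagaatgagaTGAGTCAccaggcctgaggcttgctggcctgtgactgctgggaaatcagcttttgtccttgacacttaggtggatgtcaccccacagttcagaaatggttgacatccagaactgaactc
Dusp7 site, chr9:106280387-106280644: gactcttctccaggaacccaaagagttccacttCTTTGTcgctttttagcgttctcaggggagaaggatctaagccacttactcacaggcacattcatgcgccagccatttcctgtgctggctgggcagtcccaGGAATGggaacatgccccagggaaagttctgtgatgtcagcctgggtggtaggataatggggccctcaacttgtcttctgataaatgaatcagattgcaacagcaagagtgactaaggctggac
Dusp6 site, chr10:98724253-98724510: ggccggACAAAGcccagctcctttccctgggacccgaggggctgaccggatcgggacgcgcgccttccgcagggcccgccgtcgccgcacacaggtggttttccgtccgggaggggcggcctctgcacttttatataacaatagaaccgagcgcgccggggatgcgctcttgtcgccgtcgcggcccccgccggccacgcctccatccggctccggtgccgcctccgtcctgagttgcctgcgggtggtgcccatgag
Trp63 site, chr16:25624470-25624727: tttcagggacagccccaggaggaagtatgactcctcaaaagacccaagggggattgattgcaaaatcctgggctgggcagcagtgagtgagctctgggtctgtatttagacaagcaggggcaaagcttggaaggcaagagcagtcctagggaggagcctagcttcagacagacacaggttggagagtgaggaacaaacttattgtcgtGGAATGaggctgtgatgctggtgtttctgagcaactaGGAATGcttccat

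The position of each printed site relative to its nearest start varied widely. The *Areg* site lay 24.8 kb upstream, the *Fzd1* site 9.85 kb upstream and the *Trp63* site 59.2 kb upstream of the start. The *Dusp6* and *Krt8* sites lay 1.48 and 1.24 kb upstream, close to the edge of the promoter as defined here. The *Cdsn* site lay 5.38 kb and the *Dusp7* site 3.57 kb downstream of the nearest start, beyond the end of the gene. The *Dusp7* site was 0.430 kb from a SOX4 peak, whereas the nearest SOX4 peak to the *Fzd1* site was 839 kb away.

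At least 1 SOX core was present in 3237 sites, or 59.1% (95% Wilson interval 57.8 to 60.4%), beside 58.5% of all SOX11 peaks and 32.4% of sequences of equal width 2 kb to either side of the sites. The AP-1 core was present in 2074 sites, or 37.9% (interval 36.6 to 39.2%), beside 28.5% of all SOX11 peaks and 4.83% of the flanking sequences, a ratio to the flanks of 7.84. The TEAD core was present in 1445 sites, or 26.4% (interval 25.3 to 27.6%), beside 22.8% of all SOX11 peaks and 13.4% of the flanks. The ratio to the flanks was 1.83 for SOX and 1.97 for TEAD, so by this ratio AP-1 stood highest. The cores differ in length and number of letters allowed, and a core frequent in the flanks cannot reach a high ratio. The flank share was 32.4% for SOX and 4.83% for AP-1, so the ratios do not rank the cores on 1 scale. The flanks had a median GC content of 44.96% and the sites 49.2%, and the part of GC content in these ratios was not tested. Most sites with a core had only 1 match: 2316 sites had 1 SOX match, 757 had 2 and 164 had 3 or more, while 1744 had 1 AP-1 match, 308 had 2 and 22 had 3 or more.

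Without any core defined in advance, the 8-letter sequences that differed most between the sites and their flanks also put AP-1 first. The first 6 were all AP-1 cores with 1 further letter, led by GTGACTCA, which was in 14.6% of sites and 1.37% of flanks, followed by GTGAGTCA (12.6% of sites), ATGAGTCA (12.3%), ATGACTCA (11.9%), CTGAGTCA (13.3%) and CTGACTCA (12.2%). With both strands merged, 1 AP-1 match counts for the letter before it and again for the letter after it. These 6 therefore share matches, and 37.9% of sites held an AP-1 core. The seventh was a SOX sequence, CTTTGTTC, in 7.82% of sites and 1.43% of flanks. At shared intergenic sites, the 365 peaks that met the same rules but overlapped a SOX4 peak, this SOX sequence led, in 21.6% of peaks beside 2.33% of flanks. At the 4172 SOX11-only promoter peaks the first was CCCCGCCC, a GC-box sequence, in 32.4% of peaks. These orders are descriptions, and no test was made of them. No such order was made for SOX11-only peaks in introns or for SOX11-only intergenic peaks over 100 kb from a start. The ratio of the AP-1 core to the flanks was 7.08 and 9 in those 2 classes. It was 7.38 at the shared intergenic sites and 1.45 at the promoter peaks, beside 7.84 at the SOX11-only intergenic sites. A high AP-1 ratio was thus not particular to these sites.

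**Figure D1:**
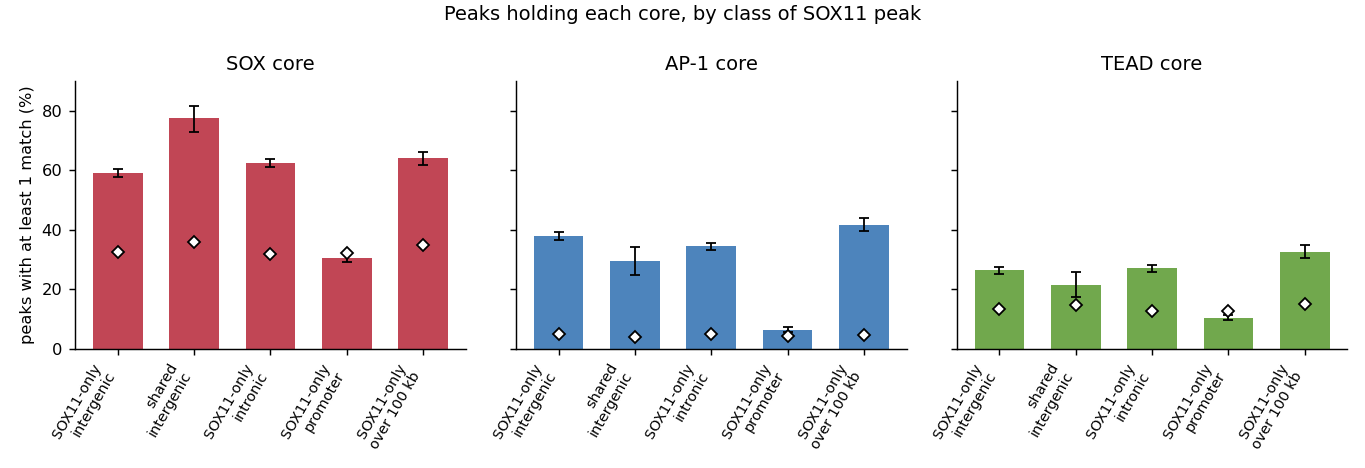
Share of peaks (%) with at least 1 match to the SOX, AP-1 or TEAD core (left to right) in 5 classes of SOX11 peak. Bars are shares with 95% Wilson intervals over peaks and diamonds are the shares in flanking sequence; the SOX11-only intergenic sites (59.1, 37.9 and 26.4%) had fewer SOX cores and more AP-1 cores than the shared intergenic sites (77.5 and 29.3%).

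The sites were set against 3 other classes of SOX11 peak, with 9 comparisons adjusted together by the Benjamini-Hochberg method. The tests are two-sided Fisher's exact tests over peaks, which are not replicates, and neighbouring peaks are not independent, so a p covers counting error over these lists only. Against shared intergenic sites, the SOX core was less frequent at the SOX11-only sites (59.1 against 77.5%, odds ratio 0.419, adjusted p = 1.99e-12, Fisher's exact test). The AP-1 core was more frequent (37.9 against 29.3%, odds ratio 1.47, adjusted p = 0.00124, Fisher's exact test). The TEAD core was also more frequent (26.4 against 21.4%, odds ratio 1.32, adjusted p = 0.0407, Fisher's exact test), but with sequence reaching 250 bp to each side of the centre the shares were 37.9 and 37.8% (odds ratio 1.00). Shared sites stood earlier in the list, at a median position of 5879 against 12609. Up to position 8000 of the list the SOX difference was as large (66.0 against 83.3%, odds ratio 0.388, adjusted p = 4.49e-08, Fisher's exact test), while the AP-1 difference did not pass (36.0 against 32.1%, odds ratio 1.19, adjusted p = 0.376, Fisher's exact test).

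The letters of the SOX core also differed between these classes in their shares. CTTTGT was present in 45.7% of the SOX11-only sites and 67.4% of the shared sites, beside 21.6 and 24.2% of their flanks. CATTGT was present in 21.3 and 24.4%, beside 13.9 and 14.8% of the flanks. The gap between the classes was thus wider for CTTTGT than for CATTGT, though this was not tested.

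SOX11-only sites in introns of protein-coding genes, 5965 in number, were closest to the intergenic sites in these shares. The SOX core was present in 62.4% of them (odds ratio 0.872 for intergenic against intronic sites, adjusted p = 5.83e-04, Fisher's exact test) and the AP-1 core in 34.4% (odds ratio 1.16, adjusted p = 1.89e-04, Fisher's exact test). The TEAD core was present in 27.0% (odds ratio 0.970, adjusted p = 0.485, Fisher's exact test). Neither call held when only peaks with a GC content of 45 to 55% were compared, which gave 0.903 for SOX (adjusted p = 0.0684, Fisher's exact test) and 1.04 for AP-1 (adjusted p = 0.611, Fisher's exact test).

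SOX11-only promoter peaks differed most of the 3 classes. The SOX core was in 30.4% of them, against 32.3% of their flanks, the AP-1 core in 6.33% and the TEAD core in 10.4%. The odds ratios of the intergenic sites against promoter peaks were 3.31 for SOX (adjusted p = 3.84e-175), 9.03 for AP-1 (adjusted p = 2.12e-316) and 3.11 for TEAD (adjusted p = 7.29e-91, all Fisher's exact tests). Promoter peaks had a median GC content of 64.7% and a median of 21 CpG dinucleotides, against 49.2% and 3 at the intergenic sites. Among peaks with a GC content of 45 to 55%, SOX cores were in 59.0% of intergenic sites and 58.5% of promoter peaks (odds ratio 1.02, adjusted p = 0.820, Fisher's exact test). The AP-1 difference remained past the threshold in that range (38.7 against 18.5%, odds ratio 2.79, adjusted p = 7.14e-22, Fisher's exact test), as did that of TEAD (28.5 against 17.5%, odds ratio 1.88, adjusted p = 4.32e-08, Fisher's exact test).

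Cores of other factors that act in keratinocytes were counted in the same way as a description. RUNX (TGTGGTT) was in 9.83% of the sites and 6.49% of their flanks, ETS (CCGGAA) in 4.81 and 2.48%, and KLF (CCACCC) in 24.4 and 18.3%. AP-2 (GCC and GGC with any 3 bases between) was in 11% and 5.04%, and the GC box (CCGCCC) in 10.7 and 3.68%. C/EBP (TTGC and AA with any 2 bases between) was in 12.7 and 10.8%, GRHL (AACC and GTT with any 1 base between) in 3.22 and 1.97%, CTCF (AGGGGGC) in 3.78 and 3.08%, and p63 (CATG and CATG with any 6 bases between) in 1.48 and 1.04%. The CRE (TGAC followed directly by GTCA) was in 0.548% of the sites and 0.164% of the flanks, a ratio of 3.33, the largest of these and under the 7.84 of the AP-1 core.

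**Figure D2:**
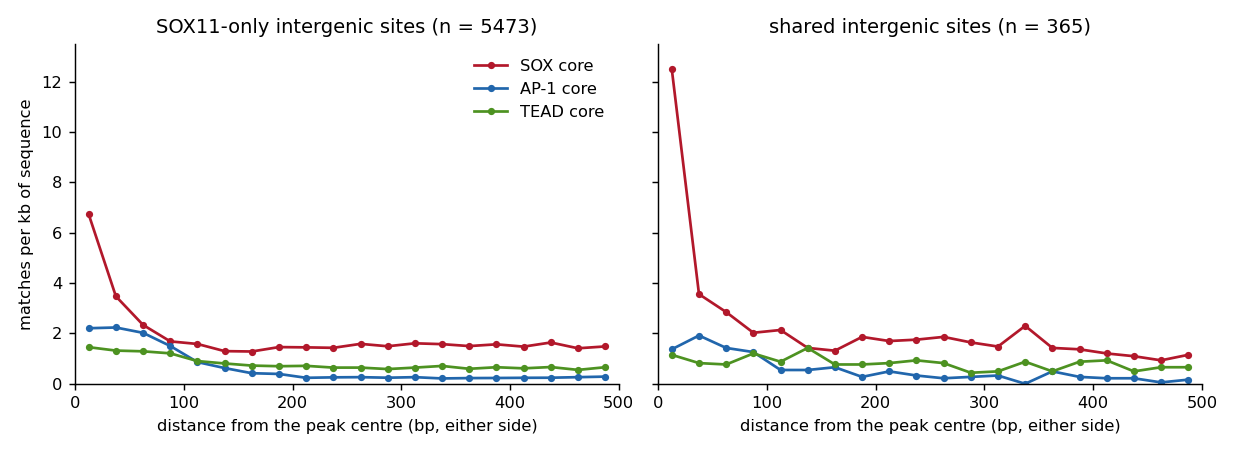
Matches per kb of sequence to the SOX, AP-1 and TEAD cores in steps of 25 bp from the peak centre out to 500 bp, both sides summed, at the 5473 SOX11-only intergenic sites (left) and the 365 shared intergenic sites (right). The SOX core reached 6.73 per kb at the centre of the SOX11-only sites and 12.49 per kb at that of the shared sites, whereas the AP-1 core formed a lower, broader rise.

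The cores also lay differently around the peak centre. Within 25 bp of the centre of the SOX11-only intergenic sites there were 6.73 SOX matches per kb, falling to 3.48 at 25 to 50 bp and to 1.48 at 475 to 500 bp. AP-1 matches were as dense at 25 to 50 bp (2.24 per kb) as within 25 bp (2.21 per kb), and their density at 475 to 500 bp was 0.285 per kb. TEAD matches went from 1.45 per kb at the centre to 0.658 at the far end. At the shared intergenic sites the density of SOX matches at the centre was 12.49 per kb and that of AP-1 1.37 per kb. At 25 to 50 bp these were 3.56 and 1.92 per kb, so in both classes the SOX density dropped within 50 bp of the centre and the AP-1 density did not.

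Among the called sites, SOX and AP-1 cores shared a site less often than independent placement over these sites would give. Only called peaks were counted and the flanks were not used as a reference. Whether the cores avoid each other in DNA was therefore not tested. The AP-1 core was present in 35.2% of the 3237 sites with a SOX core and in 41.7% of the 2236 sites without one (odds ratio 0.760 and p = 1.25e-06 by Fisher's exact test). Both shares were above the 4.83% of the flanking sequences. Fisher's exact test in the 45 to 55% range of GC content gave 0.664 with p = 3.09e-08. In the 1141 sites with both, the nearest pair was a median of 44 bp apart, and 624 (54.7%) were at most 50 bp apart, 35 of which overlapped. Among pairs that did not overlap, the most frequent distance, 3 bp, was found in 18 sites, and 31 and 36 bp in 17 sites each. The 35 overlapping pairs were left out of this ranking and were not split by the length of their overlap, so whether an overlapping arrangement is preferred was not tested. All 3 cores were present in 268 sites (4.90%).

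**Figure D3:**
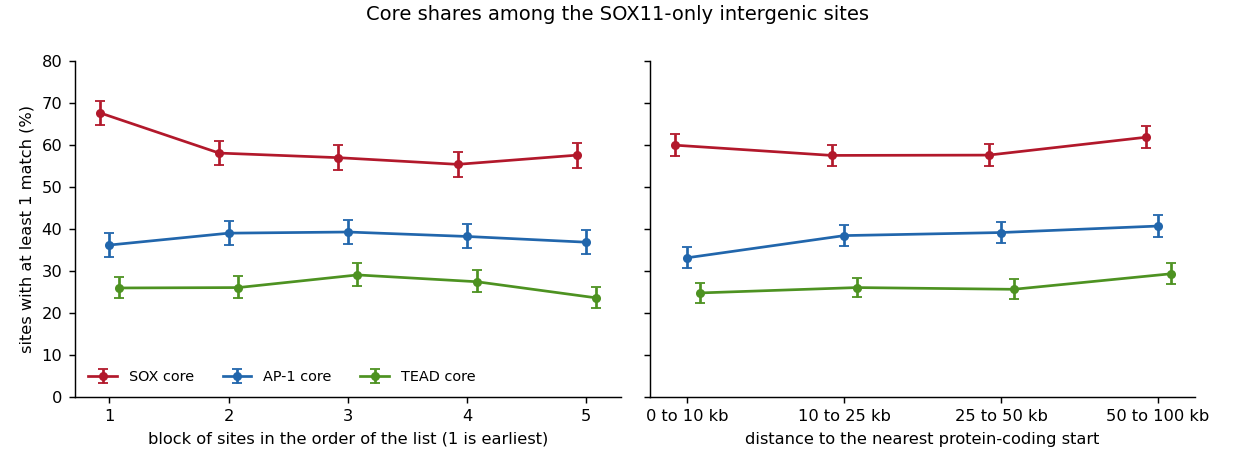
Share of the SOX11-only intergenic sites (%) with a SOX, AP-1 or TEAD core, in 5 equal blocks of sites in the order of the deposited list (left) and by distance to the nearest protein-coding start (right), with 95% Wilson intervals. The SOX share was 67.7% in the first block and 55.4 to 58.1% in the others, and the AP-1 share was lowest, 33.1%, within 10 kb of a start.

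The order of the list is the only ranking deposited, and what set it is not given in the sources used here. The sites were split along it into 5 blocks of 1094 or 1095. In the first block 67.7% held a SOX core, and in the other 4 blocks 58.1, 57.0, 55.4 and 57.6%. The first against the last block gave an odds ratio of 1.54 (adjusted p = 3.46e-06 over the 3 cores, Fisher's exact test). The AP-1 share was 36.2% in the first and 36.8% in the last block (odds ratio 0.971, adjusted p = 0.756, Fisher's exact test) and the TEAD share 25.9 and 23.6% (odds ratio 1.13, adjusted p = 0.324, Fisher's exact test). Median GC content was 51.2% in the first and 47.3% in the last block, and within the 45 to 55% range the SOX shares were 70.3 and 54.0% (odds ratio 2.01, adjusted p = 1.21e-08, Fisher's exact test).

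Sites far from genes held AP-1 cores more often than near ones. Within 10 kb of a start 33.1% of 1289 sites had an AP-1 core, and beyond 50 kb 40.7% of 1300 sites (odds ratio 0.722, adjusted p = 2.32e-04, Fisher's exact test), with 38.4 and 39.1% in the bins between. The SOX core did not pass the test (59.97 and 61.8%, odds ratio 0.924, adjusted p = 0.334, Fisher's exact test). The TEAD core was in 24.7 and 29.3% (odds ratio 0.793, adjusted p = 0.0136, Fisher's exact test), a call that was lost with 50 bp to each side, with the longer motif and in the 45 to 55% range of GC content, where adjusted p was 0.112, 0.0685 and 0.0639 (Fisher's exact tests). In that GC range the AP-1 shares were 33.7 and 41.5% (odds ratio 0.715, adjusted p = 0.00568, Fisher's exact test). SOX11-only intergenic peaks over 100 kb from a start, which the rule leaves out, held AP-1 cores in 41.7%, TEAD cores in 32.6% and SOX cores in 64.0% of 1725 peaks.

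The sites themselves lay a median of 24.3 kb from the nearest start, with quartiles at 10.6 and 48.2 kb and a lowest value of 0.337 kb. The median gap to the nearest SOX4 peak was 157 kb. Sequence that met the same place and distance rule came to 779 Mb, in steps of 100 bp and without regard to how well reads map there, so there were 7.03 sites per Mb. The density was 7.56 per Mb within 10 kb of a start, 7.75 at 10 to 25 kb, 7.14 at 25 to 50 kb and 5.88 at 50 to 100 kb. Upstream of the nearest start lay 3642 sites (66.5%), where 64.1% of the eligible sequence also lay. By chromosome the density ran from 9.87 per Mb on chromosome 15 and 9.86 on chromosome 11 down to 5.34 on chromosome 14, with 1.47 per Mb on the X chromosome, which had 86 sites in 58.3 Mb. Promoters of annotated non-coding genes or pseudogenes held 125 of the sites and their bodies 367, so that 452 sites (8.26%) touched one or the other.

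**Figure D4:**
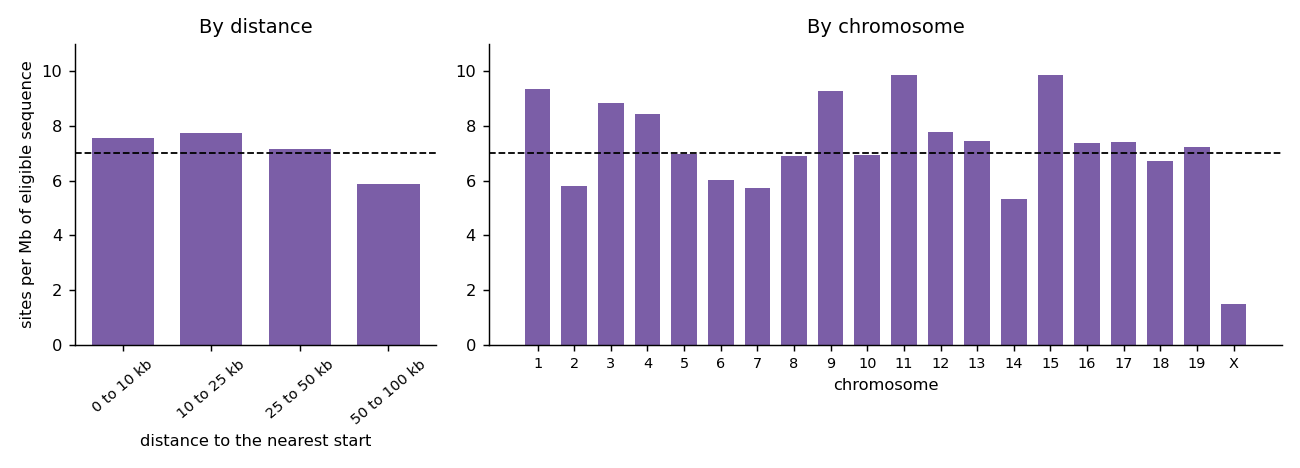
SOX11-only intergenic sites per Mb of eligible sequence (intergenic, at most 100 kb from a protein-coding start) by distance to the nearest start (left) and by chromosome (right). The dashed line is the density over all eligible sequence, 7.03 per Mb; the X chromosome stood lowest at 1.47.

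The first site in the list stood at position 2139, 13.6 kb upstream of *Sppl3*, and the last peak before the limit that met the other rules lay 25.006 kb downstream of the start of *Mx2*. The site farthest from a start was 99.947 kb upstream of *Cpeb2*, and the nearest peak beyond the limit was 100.018 kb from *Rfx3*. The site nearest to a SOX4 peak, 5.59 kb downstream of the start of *Gm10068*, was 1 bp away from it, and the least overlap outside was 6 bp, at a peak 8.22 kb upstream of *Stab2*. After *Sppl3*, the sites earliest in the list were nearest to *Sema3b* (3.51 kb upstream), *Phf15* (16.8 kb upstream), *Lmln* (6.03 kb downstream) and *Kif5c* (9.58 kb upstream), of which the *Phf15* site had an AP-1 core alone and the *Kif5c* site all 3 cores.

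Each site was given to the protein-coding gene whose start was nearest, which does not show that the gene is its target. At least 1 site was nearest to 3664 of 22380 protein-coding genes (16.4%), and 58 genes (0.259%) had at least 5. Of the 3664 genes, 1021 (27.9%) also had a SOX11 peak in a promoter, beside 21.2% of all protein-coding genes, and 791 (21.6%) were nearest to a SOX4 peak, beside 10.1% of all genes. For 1446 of them (39.5%), the SOX11-only intergenic sites were the only SOX11 or SOX4 peaks assigned. Genes with more intergenic sequence around them can hold more sites, so densities are given for the lists and for some of the genes below.

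*St3gal1*, a sialyltransferase of O-linked glycans, had the most sites, 9, between 2.51 and 65.0 kb from its start, or 56.2 per Mb. They stood at positions 2624, 4120, 4878, 6324, 12603, 13216, 13217, 16683 and 19346 of the list, 6 of them upstream and 3 downstream, and 6 held a SOX core and 4 an AP-1 core. The nearest SOX4 peak to any of these was over 500 kb away, and no SOX11 peak lay in the promoter. *Ptgs2*, the inducible cyclooxygenase of prostaglandin synthesis, had 8 sites within 70.2 kb, of which 3 held a SOX and 2 an AP-1 core, and the closest lay 1.45 kb upstream of its start. *Cldn23*, a claudin of tight junctions, also had 8, all upstream between 33.9 and 92.2 kb. The density was 49.8 per Mb at *Ptgs2* and 40.7 at *Cldn23*.

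Each of 4 genes had 7 sites. The density was 59.2 per Mb at *Pfkfb3*, 59.9 at *Zfp366* and 36.3 at *Ankrd50*. *Gclc*, the catalytic subunit of the enzyme that starts glutathione synthesis, had 6 of 7 with a SOX core and a density of 70.4 per Mb. *Pfkfb3*, which makes an activator of glycolysis, had 5 of 7 with an AP-1 core and 3 with a SOX core, 5 of them downstream of the start. *Ankrd50*, an ankyrin repeat protein, had 5 of 7 with an AP-1 core and 2 with a SOX core, and its sites stood late in the list, from position 17060. *Zfp366*, a zinc finger protein, had 2 with a SOX core and 1 with an AP-1 core. A further 16 genes had 6 sites each, of which *Ifne*, an interferon of epithelia, *Ets2*, an ETS-family factor, and *Commd8* stood first in the list. The sites of *Ifne* held a SOX core in 5 of 6 cases and an AP-1 core in 1.

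**Figure D5:**
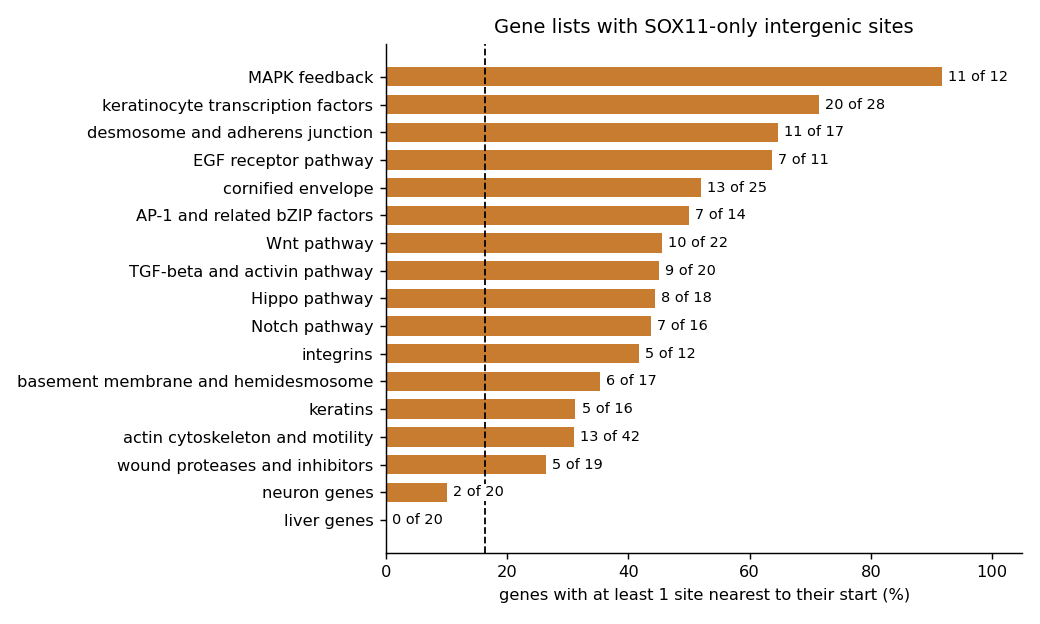
Share of the genes in 17 lists (%) with at least 1 SOX11-only intergenic site nearest to their start, with the counts beside each bar. The dashed line is the share among all 22380 protein-coding genes, 16.4%; MAPK feedback genes stood highest (11 of 12) and liver genes lowest (0 of 20).

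The lists of genes differed in how many of their members had a site, which is described here beside 16.4% of all protein-coding genes and 7.03 sites per Mb and without a test. The lists were chosen with earlier results of these data known, so their shares are descriptions only. Genes that dampen the MAP kinase pathway stood highest by share of genes, with 11 of 12 having a site and 32 sites in all. Their density was 28.2 per Mb, below the 30.7 of the basement membrane and hemidesmosome list. *Spred2*, an inhibitor of RAS signalling, had 6 sites, all upstream between 46.8 and 94.6 kb. *Spry2*, of the related Sprouty family, had 5, at 1.05 kb upstream and 5.63, 34.5, 77.7 and 91.3 kb downstream of its start, and all 5 held a SOX core, the farthest 3 together with an AP-1 core. The nearest SOX4 peak to any *Spry2* site was about 4000 kb away. *Dusp1*, a MAP kinase phosphatase, and *Spry1* had 4 each. The SOX core was in 22 of the 32 sites (68.8%) and the AP-1 core in 11 (34.4%), beside 59.1 and 37.9% of all the SOX11-only intergenic sites. Among genes of the EGF receptor pathway, which lies above the same cascade, 7 of 11 had a site, with 4 at *Areg* (24.8 and 29.1 kb upstream, 17.3 and 80.8 kb downstream of its start, the first 3 with an AP-1 core) and 2 at *Tgfa*, both ligands, 3 at *Errfi1*, an inhibitor of the receptor, and 1 at *Hbegf*, another ligand.

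Transcription factors of keratinocytes came second by share of genes, with 20 of 28 genes and 47 sites (18.7 per Mb). A SOX11 peak in a promoter was found for 3 of the 28, beside 21.2% of all protein-coding genes. *Klf6*, a zinc finger factor, had 6 sites from 8.97 to 91.7 kb from its start, 5 with a SOX and 4 with an AP-1 core. *Barx2*, a homeobox factor, and *Id2*, an inhibitor of helix-loop-helix factors, had 4 each. *Trp63*, the master factor of stratified epithelium, had 3 sites, 16.8, 53.5 and 59.2 kb upstream of the start, none with an AP-1 core. Among AP-1 and related bZIP factors 7 of 14 genes had a site (22.6 per Mb). *Jun* had 5 sites, 3 of them upstream at 32.0, 42.6 and 53.5 kb, each with an AP-1 core, and 2 downstream at 19.3 and 26.1 kb without one. *Fosb* and *Bach1*, a partner of the small MAF proteins, had 2 each and *Nfe2l2*, the gene of NRF2, had 1.

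Genes of cell adhesion and structure had sites to different extents. In desmosomes and adherens junctions 11 of 17 genes had a site (24.2 per Mb), with 4 at *Ctnnb1*, the gene of beta-catenin, and 2 each at *Perp*, a desmosomal membrane protein, and the desmosomal cadherins *Dsg3* and *Dsc3*. One of the *Ctnnb1* sites, singled out after its values were seen, lay 42.8 kb upstream of the start and held 6 SOX matches. In the basement membrane and hemidesmosome list 6 of 17 genes had a site and the density was 30.7 per Mb, with 6 at *Tnc*, the gene of tenascin C, 4 at *Col18a1* and 1 at *Col17a1*, both collagens. In the integrin list 5 of 12 genes had a site (11.9 per Mb), with 2 each at *Itgav* and *Itgb1* and 1 each at *Itga3* and *Itgb8*. Of the 7 integrin sites 6 held an AP-1 core, beside 37.9% of all the SOX11-only intergenic sites. This was the highest AP-1 share of the lists, rests on few sites and was not tested. The cytoskeletal list had sites at 13 of 42 genes (20.3 per Mb). SOX11 promoter peaks were found at 19 of the 42, beside 21.2% of all protein-coding genes. *Rhob*, a small GTPase, had 6 sites, *Rnd3* 5, and *Myh9*, the heavy chain of non-muscle myosin IIA, and *Cdc42ep3*, a CDC42 effector, 4 each.

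In the cornified envelope list, the proteins of the outermost layers, 13 of 25 genes had a site (19.1 per Mb) but mostly only 1. *Ivl*, the gene of involucrin, had 3, and *Cdsn*, *Tgm3*, a transglutaminase, and *Cnfn* had 1 each. Among keratins 5 of 16 genes had a site (19.7 per Mb). *Krt8* and *Krt18*, which form a pair in simple epithelia, had 2 and 1, *Krt5*, of the basal epidermis, had 1, and *Krt80* had 1. Of these 6 keratin sites 5 held an AP-1 core and 2 a SOX core, beside 37.9 and 59.1% of all the SOX11-only intergenic sites. These are few sites and no test was made.

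The TGF-beta and activin, Wnt, Hippo and Notch lists lay between the cornified envelope and keratin lists by share of genes. Their densities were 15.8 per Mb for TGF-beta and activin, 12.0 for Wnt, 19.7 for Hippo and 16.9 for Notch. The EGF receptor list had 16.5 per Mb and the list of wound proteases and inhibitors 13.3. In the TGF-beta and activin list 9 of 20 genes had a site, with 5 at *Tgfbr2*, all upstream at 12.0, 18.6, 33.0, 59.2 and 92.3 kb, 4 at *Smad7*, an inhibitor of the pathway, and 3 each at *Tgfb2* and *Tgfbr3*. In the Wnt list 10 of 22 genes had a site, with 6 at *Wnt4* and 4 at *Wnt7b*, both ligands and with all these sites upstream, 2 at *Fzd7* and 1 at *Fzd1*, both receptors. A SOX core was in 6 of the 19 Wnt-list sites (31.6%), beside 59.1% of all the SOX11-only intergenic sites. This was the lowest SOX share of the lists apart from the contrast lists, and it was not tested. In the Hippo list 8 of 18 genes had a site, with 5 at *Cyr61*, a known target of YAP, 3 at *Amotl2* and 2 each at *Amotl1* and *Ankrd1*. In the Notch list 7 of 16 genes had a site, with 4 at the ligand *Dll1*, 3 at the coactivator *Maml2*, and 2 each at the ligand *Jag1* and the DNA-binding factor *Rbpj*. Among proteases and inhibitors of wound repair 5 of 19 genes had a site, with 2 each at the collagenase *Mmp13*, *Mmp10*, *Serpinb2* and *Plau*, the gene of urokinase, for which both sites held an AP-1 core.

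Lists of liver and neuronal genes were counted as a contrast, beside 16.4% of all protein-coding genes and without a test. With 20 genes each, they were too small to check the labelled cell type. None of 20 liver genes had a site, where a count of 0 among 20 allows a share of up to 15%, and their eligible sequence came to 0.783 Mb. Of 20 neuronal genes 2 had 1 site each (1.78 per Mb), *Slc17a7* and *Cacna1a*, at positions 18026 and 19671 of the list and with none of the 3 cores.

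The sites were often close to each other. Another SOX11-only intergenic site lay within 25 kb of 2320 of them, or 42.4% (interval 41.1 to 43.7%), within 10 kb of 23.0% and within 50 kb of 58.2%. Joined into chains with gaps between centres of no more than 12.496 kb, the widest found within a chain, 3988 sites (72.9%) stood alone, 533 chains had 2 sites, 103 had 3, 25 had 4 and 2 had 5. One chain of 5, chr15:66683088-66709731, spanned 26.6 kb near *Sla* and *Wisp1*, and 4 of its sites held an AP-1 core, 4 a TEAD core and 1 a SOX core. The other, chr1:90333705-90372432, spanned 38.7 kb near *Glrp1* and *Spp2*, and held 3 sites with a SOX core and none with AP-1 or TEAD. The densest chains of 4 lay at chr3:84123592-84136311 near *Trim2*, at chr9:56749062-56762137 near *Snx33* and at chr1:184458693-184472572 near *Capn2* and *Capn8*. An AP-1 core was present in 1, 3 and 0 of their sites and a SOX core in 3, 1 and 2.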

How the data were processed

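The authors aligned the ChIP-seq reads to mm9 (Bowtie2), duplicates were removed with Picard, peaks were called with HOMER and blacklisted regions were subtracted with bedtools, per the submitters' processing notes and the study's methods. Versions, peak thresholds and the control given to HOMER are not given in the sources used here. The deposited values are peak coordinates, with no counts, signal or score; the depth of the libraries is unknown. Each list joins 2 replicates.

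The members, comparisons and gene lists were chosen with earlier results of these data known. Coordinates are counted from 1. Overlap was computed in Python 3.11.15 with numpy 2.4.6 and pandas 2.3.3 and checked with bedtools 2.31.1 (18748 SOX11 peaks without SOX4 in both). Sequence came from the mm9 genome through pysam 0.24.0, and genes from GENCODE M1, where 4 listed genes were found under an older symbol through RefSeq's GRCm38 gene table. All but 2 of the sites were 258 bp wide. Peaks were placed by their centre; flanks were shifted by 2 kb. Fisher's exact tests used scipy 1.17.1, with Benjamini-Hochberg adjustment within each family. Longer 10-letter motifs, used as an alternative with 1 mismatch, were read from the study's logos. The search, placement, overlap and tests were tested on simulated data.

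Genes are named by rule: the first 5 sites, the 10 genes with most sites, up to 4 genes of each list with most sites, the 5 largest chains, and the sites at each limit; ties went to the earliest site. Sequences were the earliest of each kind among sites nearest to a listed gene, with 1 chromosome left out and, for SOX with AP-1, cores at most 50 bp apart. Figures were drawn with matplotlib 3.10.9. Alternatives varied the searched width, motif, distance limit, annotation, promoter, SOX4 overlap, GC content and list positions. The sites of 1 gene that this rule names are not reported here.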

Additional observations from a re-analysis of the deposited data

How the results depend on the processing

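For 19 results, 122 alternatives were run, 103 of them planned and 19 (GC content and list positions) chosen after seeing the data. In 100 alternatives a test kept its direction and side of the threshold or a count stayed within 1.5 times; a share without a test was held to its Wilson interval. In 16 the call was lost, in 3 a value moved and in 3 the direction turned, none of the last with a call. Odds ratios follow. With 50 bp to each side, calls were lost for AP-1 against intronic sites (1.10), TEAD against shared sites (1.42) and TEAD by distance (0.805). With 250 bp to each side TEAD against shared sites gave 1.00. With the longer motif, calls were lost for SOX (0.947) and AP-1 (1.05) against intronic sites, TEAD against shared sites (1.31) and TEAD by distance (0.833). With all GENCODE genes SOX against intronic sites gave 0.933, and with shared sites of all positions TEAD gave 1.08. With a GC content of 45 to 55%, calls were lost for SOX against intronic (0.903) and promoter peaks (1.02), AP-1 against intronic sites (1.04) and TEAD by distance (0.792), and with positions up to 8000 for AP-1 (1.19) and TEAD (1.06) against shared sites. The direction turned for TEAD between the first and last block with 50 bp to each side (0.999) and the longer motif (0.989), and for SOX by distance in the GC range (1.14). Counting sites within 25 kb left 2355 genes with a site; windows of 10 and 50 kb gave shares with a neighbour of 23.0 and 58.2%. No paired analysis was possible because each list pools both replicates and the results come from no replicate columns; for the same reason no replicate was left out. Without peak heights or depth, a missing SOX4 peak cannot be read as missing binding.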
